A study of Mus musculus with 20 samples.

Results

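The 10 genes that mark liver endothelium and were followed across the livers of control and steatohepatitis mice here are Stab1, Stab2, Lyve1, Clec4g, Fcgr2b, Oit3, Kdr, Pecam1, Vwf and Cd34. They were chosen by name, and each matched 1 row, 10 of 38924 genes in the table. RNA-seq was performed on poly(A)+ RNA from livers of male mice, C57/BL6 by the labels and C57BL/6J in the study's methods for WT, 5 livers in each of 4 groups. NDWT were wild type (WT) mice fed control chow, and HFWT were WT mice on CDAHFD. CDAHFD is a high fat chow built from L-amino acids in place of protein, deficient in choline and limited in methionine. NDKO and HFKO were mice of a purchased TSP-1 knockout stock, called TSP-1 null, on the control diet and on CDAHFD. Mice were purchased at 5 weeks of age, were acclimated for 1 week and were fed for 12 weeks. The liver lobe is given as right medial by the series description and as right lateral by the study's methods.

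Liver sinusoids are lined by a fenestrated endothelium with no organised basement membrane. It clears waste molecules and immune complexes from portal blood through scavenger receptors (Stab1, Stab2, Lyve1, which binds hyaluronan), C-type lectins (Clec4g) and the inhibitory Fc gamma receptor (Fcgr2b). Kdr, the main VEGF receptor of endothelium, and Pecam1, an adhesion molecule at endothelial junctions, mark endothelium in general, while Vwf, the platelet-binding factor, and Cd34, a sialomucin, are scarce in healthy sinusoids and abundant in vessels with continuous endothelium. Loss of fenestrae and gain of a basement membrane, known as capillarization, accompanies fibrosis, and Cd34 is a commonly used marker of it.

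All 10 members passed the filter for testing (FPKM above 0.5 in at least 5 of 20 libraries), as did 14524 genes in all. FPKM are fragments scaled to gene length and to the number of fragments assigned in a library, so levels can be compared between genes of different length. The libraries held 15641545 to 23276322 fragments assigned to genes, as recovered from the FPKM steps. On the control diet Cd34 rested on 16 to 41 fragments and Vwf on 150 to 273, whereas each other member had at least 96 fragments in each of the 20 libraries.

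Thbs1, which encodes TSP-1, went against the knockout labels on the control diet. Its FPKM was 0.17, 0.326, 0.268, 0.058 and 0.165 in NDWT and 1.00, 1.5, 0.986, 1.90 and 1.13 in NDKO. On CDAHFD it was 5.77, 6.10, 3.46, 3.91 and 3.86 in HFWT and 3.30, 3.32, 3.05, 3.14 and 4.40 in HFKO. Gene-level FPKM cannot show whether the NDKO and HFKO fragments came from a transcript left by the knockout allele, and this was not tested. Genotype is therefore given throughout as labelled. HFWT replicate 5 also stood apart, with 5.55% of its fragments in the predicted genes Gm26924 and Gm23935 against 0.176% to 1.98% in the other 19 libraries.

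In bulk liver fewer endothelial cells and less RNA per endothelial cell cannot be told apart. Genes were called differentially expressed (DEG) at a false discovery rate (FDR) below 0.05 and an absolute log2 fold change (log2FC) above 0.58, with limma on log2(FPKM + 0.1), where the added 0.1 understates changes of low genes. On CDAHFD most of the transcriptome was shifted upward on this scale. The median log2FC of all genes tested was 0.53 in WT and 0.50 in TSP-1 null livers, so member changes are also given relative to that median.

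Promoter sequence is shown for the member that rose most on CDAHFD and for a pair of sinusoidal receptors that behaved differently. The windows are the 250 bases upstream of the RefSeq start, from GRCm38.p6. Capitals mark the ETS core with its flanks, AGGAAG or CTTCCT on the other strand. ETS factors such as Erg and Fli1 act in endothelial cells, and the letters occurred in 29.5% of 32851 RefSeq windows of this length.

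Cd34, chr1:194938571-194938820, + strand: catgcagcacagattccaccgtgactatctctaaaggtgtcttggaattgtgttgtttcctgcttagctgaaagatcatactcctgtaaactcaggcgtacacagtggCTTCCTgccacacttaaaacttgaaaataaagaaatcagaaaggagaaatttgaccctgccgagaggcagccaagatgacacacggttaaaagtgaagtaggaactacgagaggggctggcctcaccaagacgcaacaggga
Stab1, chr14:31168642-31168891, - strand: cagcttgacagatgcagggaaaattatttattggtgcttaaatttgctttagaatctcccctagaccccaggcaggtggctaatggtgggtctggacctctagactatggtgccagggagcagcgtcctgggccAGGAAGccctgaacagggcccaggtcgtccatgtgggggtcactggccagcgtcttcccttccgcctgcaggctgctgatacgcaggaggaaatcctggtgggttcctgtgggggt
Clec4g, chr8:3720652-3720901, - strand: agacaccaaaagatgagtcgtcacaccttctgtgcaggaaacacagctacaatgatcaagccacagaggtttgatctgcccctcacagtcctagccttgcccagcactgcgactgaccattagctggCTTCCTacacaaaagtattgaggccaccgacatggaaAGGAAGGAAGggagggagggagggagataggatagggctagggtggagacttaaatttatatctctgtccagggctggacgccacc

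Cd34 and Stab1 each held 1 match and Clec4g held 3, of which a pair overlapped in AGGAAGGAAG. Stab2 had 1 match, and Fcgr2b and Kdr had none in the same window. The Stab2 and Fcgr2b windows held 83 and 203 exon bases of GENCODE M21, and the Stab2 match lies within the annotated gene. The GATA letters AGATAA, or TTATCT on the other strand, were in none of the 6 member windows and in 9.99% of all windows. These matches are a description of the letters and not of factor binding.

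In healthy WT liver Clec4g and Fcgr2b had the highest means of the 10 members, and Vwf and Cd34, markers of continuous endothelium, the lowest. Mean FPKM in NDWT was 14.8 ± 0.70 (SD, n = 5) for Clec4g, 13.4 ± 1.08 for Fcgr2b, 12.5 ± 0.87 for Oit3, a secreted protein, 11.6 ± 1.00 for Stab2, 10.7 ± 0.51 for Kdr and 9.63 ± 0.36 for Stab1. Lyve1 followed at 5.01 ± 0.91 and Pecam1 at 4.16 ± 0.29. Vwf was at 0.640 ± 0.097 and Cd34 at 0.518 ± 0.14. The ranges of neighbours overlapped down this order except between Kdr and Stab1, Stab1 and Lyve1, and Pecam1 and Vwf. Levels rest on the deposited gene lengths. For Cd34 (2621 bases), Fcgr2b (3849), Kdr (7278) and Lyve1 (2607) these are shorter than the exons in GENCODE M21 (7290, 5790, 9030 and 2919 bases), and places in the order that involve these 4 genes, such as Kdr above Stab1, depend on the lengths used.

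The order changed on CDAHFD. Stab1 moved from 6th in both control groups to the first place, at a mean FPKM of 18.4 ± 3.26 in HFWT and 19.0 ± 5.53 in HFKO, although its range overlapped that of Fcgr2b in both. Cd34 left the last place, which Vwf then took in both CDAHFD groups. The 10 members summed to 79.5 to 86.0 FPKM in NDWT, 63.7 to 81.4 in NDKO, 88.1 to 126 in HFWT and 89.0 to 134 in HFKO. Stab1 made up 11.6% ± 0.44 of that sum in NDWT and 17.2% ± 1.87 in HFWT, and Cd34 0.627% ± 0.18 and 5.92% ± 1.21. Kdr made up 12.9% ± 0.60 in NDWT and 8.55% ± 1.02 in HFWT.

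**Figure D1:**
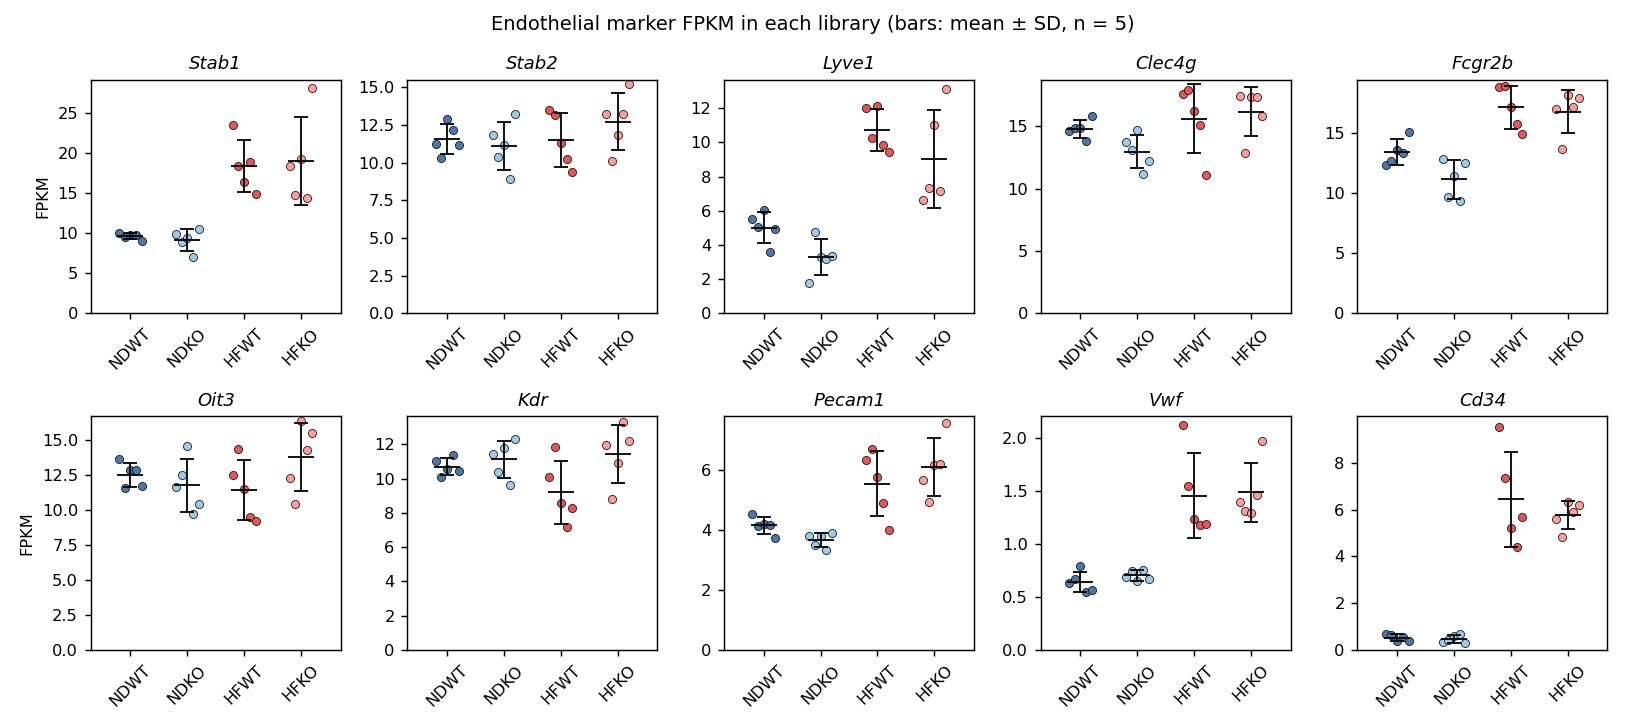
FPKM of each endothelial marker (y axis, from 0) in the 5 libraries of each group (points), with the mean and SD (bars). Cd34 lies between 0.302 and 0.692 in the 10 control diet libraries and between 4.40 and 9.53 in the 10 CDAHFD libraries, while the Stab2, Oit3 and Kdr points of the diets overlap.

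CDAHFD was compared with the control diet to ask how the endothelial genes behave in diet-induced steatohepatitis. In WT livers 4 of 10 members were higher (Stab1, Lyve1, Vwf and Cd34) and 0 were lower, at the same time as 44.1% of all genes tested were higher and 4.62% lower. In TSP-1 null livers the same 4 and also Fcgr2b and Pecam1 were higher, 6 of 10, with 0 lower, against 41.9% of all genes higher and 4.00% lower. Against that background the counts are no result about the members as a group. Members with no overlap between the diets, all of them higher on CDAHFD, were the same 4 in WT and the same 6 in TSP-1 null, where 50.5% and 52.7% of all genes were higher without overlap. The median log2FC of the members was 0.37 in WT and 0.65 in TSP-1 null, that is 0.17 below and 0.15 above the median of all genes.

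Cd34 had by far the largest change among the members. Its FPKM was 0.672, 0.640, 0.364, 0.534 and 0.382 in NDWT and 9.53, 7.37, 5.21, 4.40 and 5.67 in HFWT. In the TSP-1 null groups it was 0.351, 0.420, 0.612, 0.692 and 0.302 in NDKO and 5.62, 4.83, 6.34, 5.89 and 6.21 in HFKO. The lowest CDAHFD library was thus more than 6 times the highest control library of either genotype. The ratio of mean FPKM was 12.4 in WT and 12.2 in TSP-1 null. The log2FC was 3.38 ± 0.21 (SE) in WT, with FDR 6.11e-11 in limma, and 3.40 ± 0.21 in TSP-1 null, with FDR 8.05e-11.

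Vwf, stored in the granules of continuous endothelium and platelets, was about 2 times higher from a low level, a call that held with FPKM as deposited only. Its FPKM was 0.634, 0.671, 0.787, 0.544 and 0.565 in NDWT and 2.12, 1.55, 1.23, 1.18 and 1.19 in HFWT. NDKO libraries had 0.688, 0.748, 0.646, 0.756 and 0.671, and HFKO libraries 1.39, 1.31, 1.29, 1.46 and 1.97. All CDAHFD libraries lay above all control libraries. The log2FC was 1.05 ± 0.15 in WT (FDR 4.90e-06) and 0.97 ± 0.15 in TSP-1 null (FDR 1.32e-05).

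Stab1, a scavenger receptor that macrophages also make, rose as well. Its FPKM was 9.98, 9.49, 9.80, 9.81 and 9.07 in NDWT and 23.5, 18.3, 16.4, 18.9 and 14.9 in HFWT. In NDKO it was 9.90, 8.87, 9.43, 7.04 and 10.5, and in HFKO 18.4, 14.8, 19.3, 14.4 and 28.1. The control libraries stayed within 7.04 to 10.5 and the CDAHFD libraries spread more widely. The log2FC was 0.91 ± 0.15 in WT (FDR 2.27e-05) and 1.02 ± 0.15 in TSP-1 null (FDR 6.95e-06).

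Stab2, the closest relative of Stab1 and more restricted to sinusoidal endothelium, did not pass the test in either genotype. Its FPKM ranged from 10.3 to 12.9 in NDWT and 9.39 to 13.5 in HFWT, and from 8.94 to 13.2 in NDKO and 10.1 to 15.2 in HFKO. The diets overlapped throughout. The log2FC was -0.01 in WT (95% interval -0.27 to 0.24) and 0.19 in TSP-1 null (-0.06 to 0.44), each below the median of all genes by 0.55 and 0.30.

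Lyve1, the hyaluronan receptor of sinusoidal and lymphatic endothelium, which some tissue macrophages also carry, rose in both genotypes. Its FPKM was 5.50, 5.03, 6.03, 3.60 and 4.90 in NDWT and 12.0, 10.2, 12.1, 9.87 and 9.43 in HFWT. It was 1.78, 4.76, 3.26, 3.19 and 3.36 in NDKO and 6.62, 7.31, 11.0, 7.18 and 13.1 in HFKO. The NDKO libraries included the lowest values of all 20. The log2FC was 1.10 ± 0.21 in WT (FDR 0.000136) and 1.45 ± 0.21 in TSP-1 null (FDR 6.16e-06).

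Clec4g, which binds glycans on viral and lymphocyte proteins, changed little. FPKM ranged from 13.8 to 15.8 in NDWT, 11.1 to 17.9 in HFWT, 11.2 to 14.7 in NDKO and 12.8 to 17.4 in HFKO. The lowest HFWT value was that of replicate 5. The log2FC was 0.06 (95% interval -0.18 to 0.30) in WT and 0.31 (0.07 to 0.55, FDR 0.0201) in TSP-1 null, the latter under the 0.58 fold change limit.

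Fcgr2b, which takes up small immune complexes and is also made by B cells and macrophages, passed only in the TSP-1 null comparison. Its FPKM was 12.3, 12.7, 13.6, 13.3 and 15.1 in NDWT and 18.8, 18.9, 17.2, 15.7 and 14.9 in HFWT. In NDKO it was 12.8, 9.64, 11.4, 9.30 and 12.5, and in HFKO 17.0, 13.7, 18.2, 17.2 and 17.9. The diets overlapped slightly in WT and did not in TSP-1 null. The log2FC was 0.35 ± 0.10 in WT (FDR 0.00446, under the fold change limit) and 0.59 ± 0.10 in TSP-1 null (FDR 3.32e-05), just past that limit. The TSP-1 null call was lost without any one of NDKO replicate 2 (log2FC 0.54), NDKO replicate 4 (0.53), HFKO replicate 3 (0.56) or HFKO replicate 5 (0.57). Of 5609 stretches of 31 bases in Fcgr2b transcripts, 324 occur in other genes, 233 of them in Fcgr3, so reads there may have been split or dropped in counting.

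Oit3 did not pass the test in either genotype. Its FPKM was 13.6, 11.6, 12.9, 12.9 and 11.7 in NDWT, and 12.5, 14.4, 11.5, 9.49 and 9.21 in HFWT. It ranged from 9.69 to 14.6 in NDKO and 10.5 to 16.4 in HFKO. The log2FC was -0.15 (95% interval -0.43 to 0.13) in WT and 0.22 (-0.06 to 0.51) in TSP-1 null.

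Kdr had the lowest diet log2FC of the 10 members in both genotypes. Its FPKM was 11.0, 10.1, 10.6, 11.4 and 10.5 in NDWT and 10.1, 11.9, 8.57, 7.17 and 8.27 in HFWT. It was 11.5, 10.4, 11.8, 9.61 and 12.3 in NDKO and 12.0, 8.82, 10.9, 13.3 and 12.2 in HFKO. In WT, 3 HFWT libraries lay below all NDWT libraries and the others did not. The log2FC was -0.24 (95% interval -0.49 to 0.01, FDR 0.0793) in WT and 0.03 (-0.22 to 0.28) in TSP-1 null.

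Pecam1 was higher in TSP-1 null livers on CDAHFD. Its FPKM was 3.81, 3.48, 3.79, 3.35 and 3.92 in NDKO and 5.68, 4.93, 6.18, 6.22 and 7.58 in HFKO, with no overlap. In NDWT it was 4.55, 4.12, 4.20, 4.18 and 3.74, and in HFWT 6.34, 6.70, 5.75, 4.91 and 4.01. HFWT replicate 5 fell within the NDWT range. The log2FC was 0.71 ± 0.12 in TSP-1 null (FDR 3.33e-05) and 0.39 ± 0.12 in WT (FDR 0.00777), the latter under the fold change limit. Without HFWT replicate 5 the WT log2FC of Pecam1 was 0.49, and Stab1, Lyve1, Vwf and Cd34 stayed called at 0.98, 1.14, 1.10 and 3.41.

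**Figure D2:**
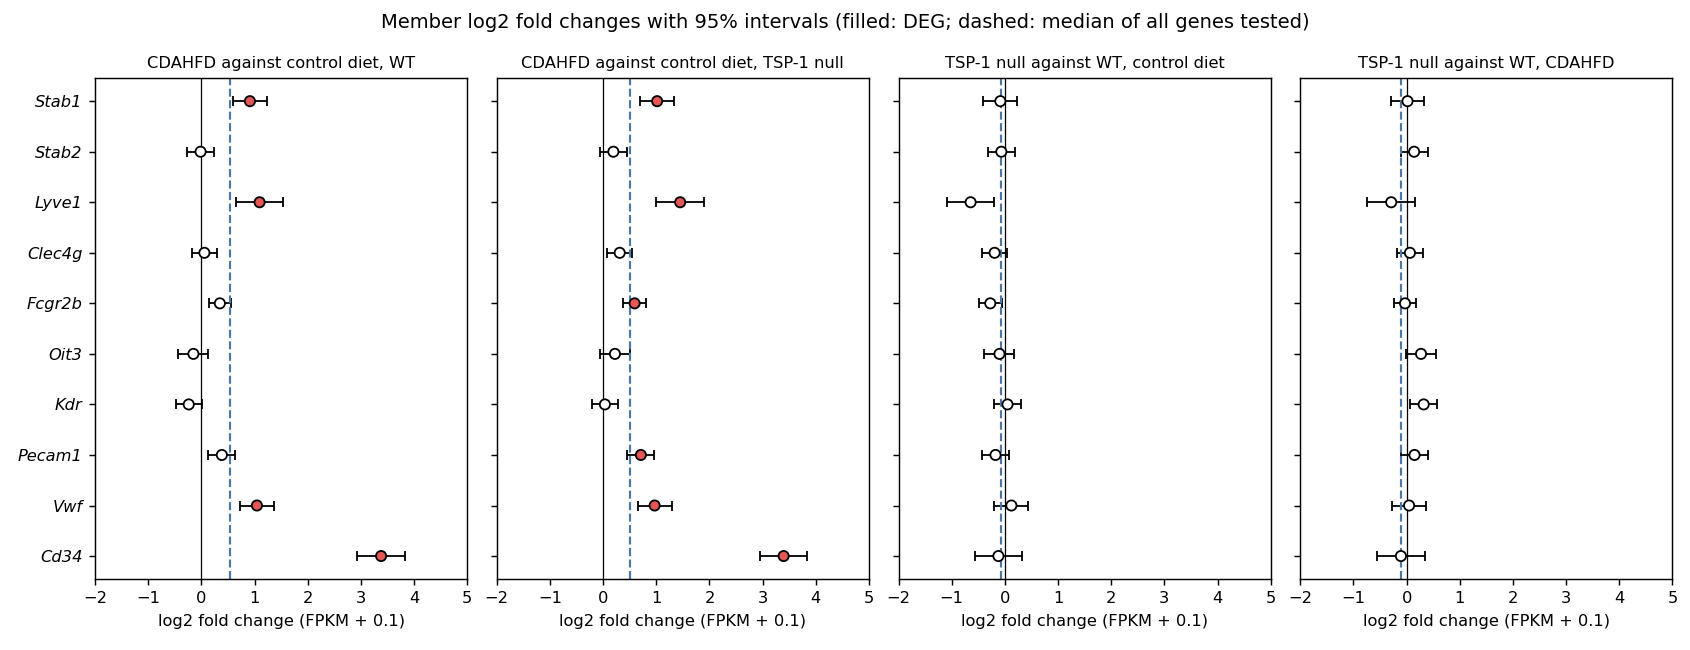
Log2 fold change of each member (x axis) in the diet and genotype comparisons, with 95% intervals, filled where the gene was a DEG, and the median of all genes tested as a dashed line. Stab2, Clec4g, Oit3 and Kdr lie to the left of the dashed line in both diet comparisons, and no member is filled in the genotype comparisons.

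Which members moved apart from the shift of all genes was read in 2 ways. Relative to the median of all genes, Stab1, Lyve1, Vwf and Cd34 stayed above it in WT by 0.38, 0.56, 0.51 and 2.85 log2 units. The other members were below it, from -0.15 for Pecam1 to -0.77 for Kdr. In TSP-1 null livers Stab2, Clec4g, Oit3 and Kdr were below it by 0.30, 0.19, 0.27 and 0.46.

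The libraries were then rescaled. With median of ratios scaling, which sets the median gene level between libraries, 22.7% of all genes were higher and 15.4% lower in WT on CDAHFD. With quantile normalization, which gives each library the same distribution, they were 18.9% and 16.2%. Under both, Cd34 was the only member called higher in WT (log2FC 2.86 and 2.57), and Kdr (-0.79 and -0.72) and Oit3 (-0.71 and -0.60) were called lower. In WT Fcgr2b (-0.21 and -0.04, FDR 0.0462 and 0.723) and Pecam1 (-0.16 and -0.27, FDR 0.162 and 0.029) changed sign without a call. So did Clec4g (-0.50 and -0.34, FDR 0.000169 and 0.00728). Stab2 was at -0.57 and -0.47 (FDR 7.23e-05 and 0.00104) and Vwf at 0.54 and 0.05 (FDR 0.00183 and 0.787). Lyve1 was at 0.54 and 0.55 (FDR 0.0262 and 0.0212), and Stab1 at 0.36 and 0.51 (FDR 0.0261 and 0.00417). All of these were under the fold change limit, also where the FDR was below 0.05.

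In TSP-1 null livers the shares of all genes were 22.2% higher and 13.6% lower with median of ratios scaling and 18.5% and 13.7% with quantile normalization. Cd34 (log2FC 2.92 and 2.64) and Lyve1 (0.93 and 0.87) kept their calls under both, Stab1 was called with quantile normalization only (0.49 and 0.61), and no member was called lower. Kdr was at -0.50 and -0.40 (FDR 0.000479 and 0.00533) and Stab2 at -0.34 and -0.24 (FDR 0.00781 and 0.0704), under the fold change limit. The rise of Cd34 was thus called in both genotypes under the 3 scalings, and the calls of Stab1, Lyve1, Vwf, Fcgr2b and Pecam1 depended on the scaling in at least 1 genotype.

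**Figure D3:**
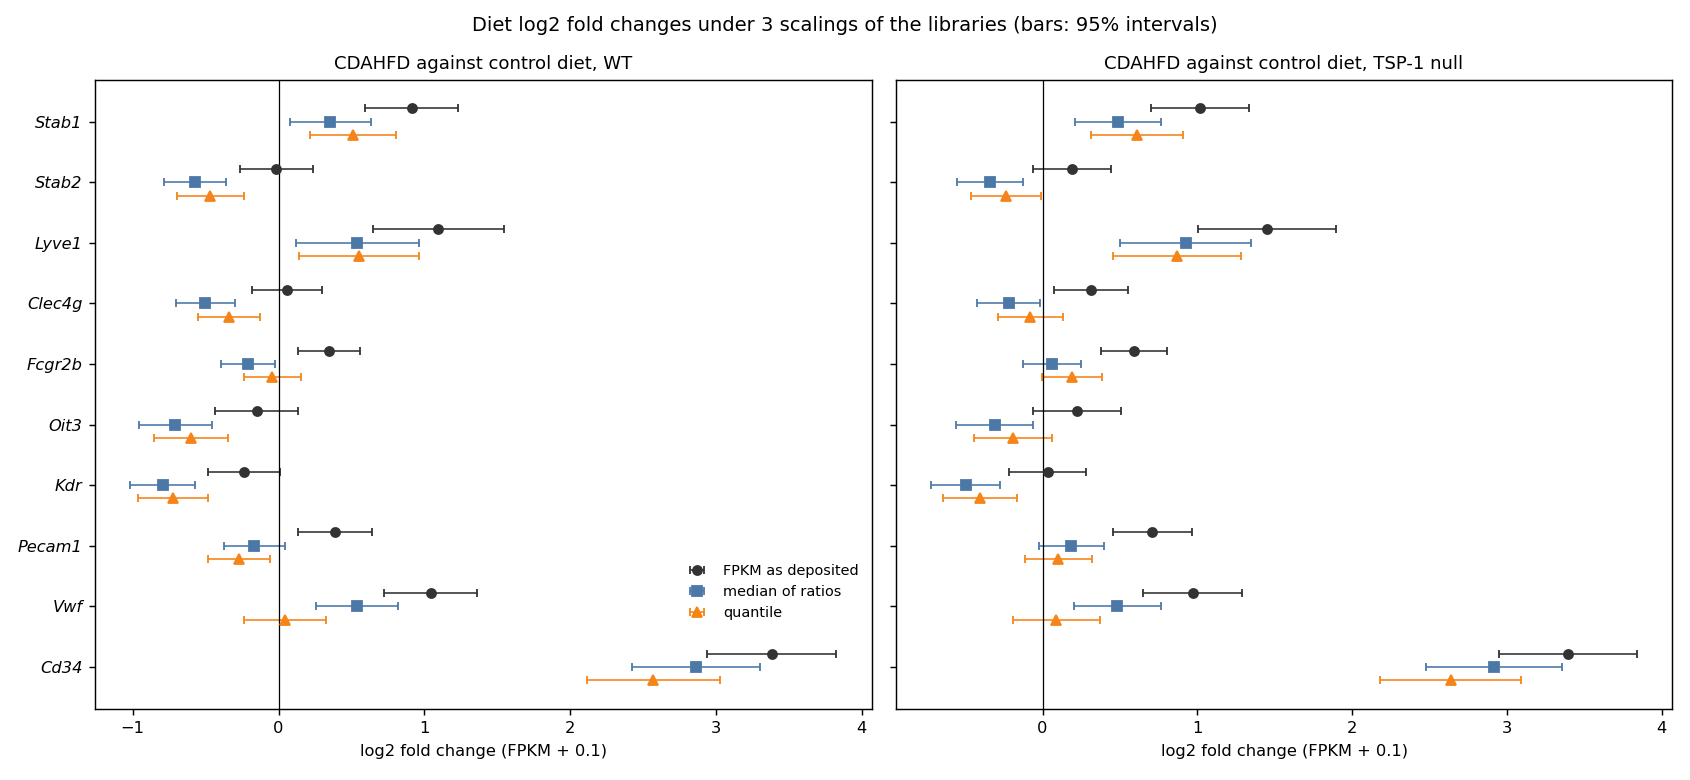
Diet log2 fold change of each member (x axis) with 95% intervals, from FPKM as deposited (circles), after median of ratios scaling (squares) and after quantile normalization (triangles). Cd34 stays above 2.5 under each scaling, while Kdr in WT goes from -0.24 to -0.79 and -0.72.

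A second reading set each member against Pecam1 of the same library, which needs no scaling between libraries. These ratios are a description, and the choice of Pecam1, which immune cells and platelets also make, fixes their direction in part. In WT 4 of 9 members had ratios higher on CDAHFD without overlap and 4 had lower ones, where 25.3% of all genes had higher and 9.15% lower ratios without overlap. In TSP-1 null, 1 of 9 was higher and 4 were lower, where 17.3% of all genes were higher and 24.7% lower.

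The same 4 members, Stab2, Clec4g, Oit3 and Kdr, had lower ratios in both genotypes. The Kdr to Pecam1 ratio was 2.42, 2.45, 2.51, 2.72 and 2.80 in NDWT and 1.59, 1.77, 1.49, 1.46 and 2.06 in HFWT. In TSP-1 null it was 2.87 to 3.15 in NDKO and 1.61 to 2.14 in HFKO. The Oit3 ratio was 3.02 ± 0.12 in NDWT and 2.07 ± 0.15 in HFWT, and 3.21 ± 0.49 in NDKO and 2.26 ± 0.24 in HFKO. The Stab2 ratio was 2.79 ± 0.28 in NDWT and 2.10 ± 0.15 in HFWT, and the Clec4g ratio 3.58 ± 0.39 and 2.82 ± 0.15.

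The ratio of Cd34 to Pecam1 moved the other way. It was 0.0866 to 0.155 in NDWT and 0.896 to 1.504 in HFWT, and 0.0771 to 0.207 in NDKO and 0.819 to 1.03 in HFKO. Stab1, Lyve1 and Vwf were also higher relative to Pecam1 without overlap in WT, but overlapped in TSP-1 null. The Fcgr2b ratio overlapped in both, with means of 3.25 in NDWT, 3.14 in HFWT, 3.02 in NDKO and 2.76 in HFKO. In HFWT the ratios of Kdr, Oit3 and Stab2 were highest in replicate 5, the library closest to the NDWT values.

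**Figure D4:**
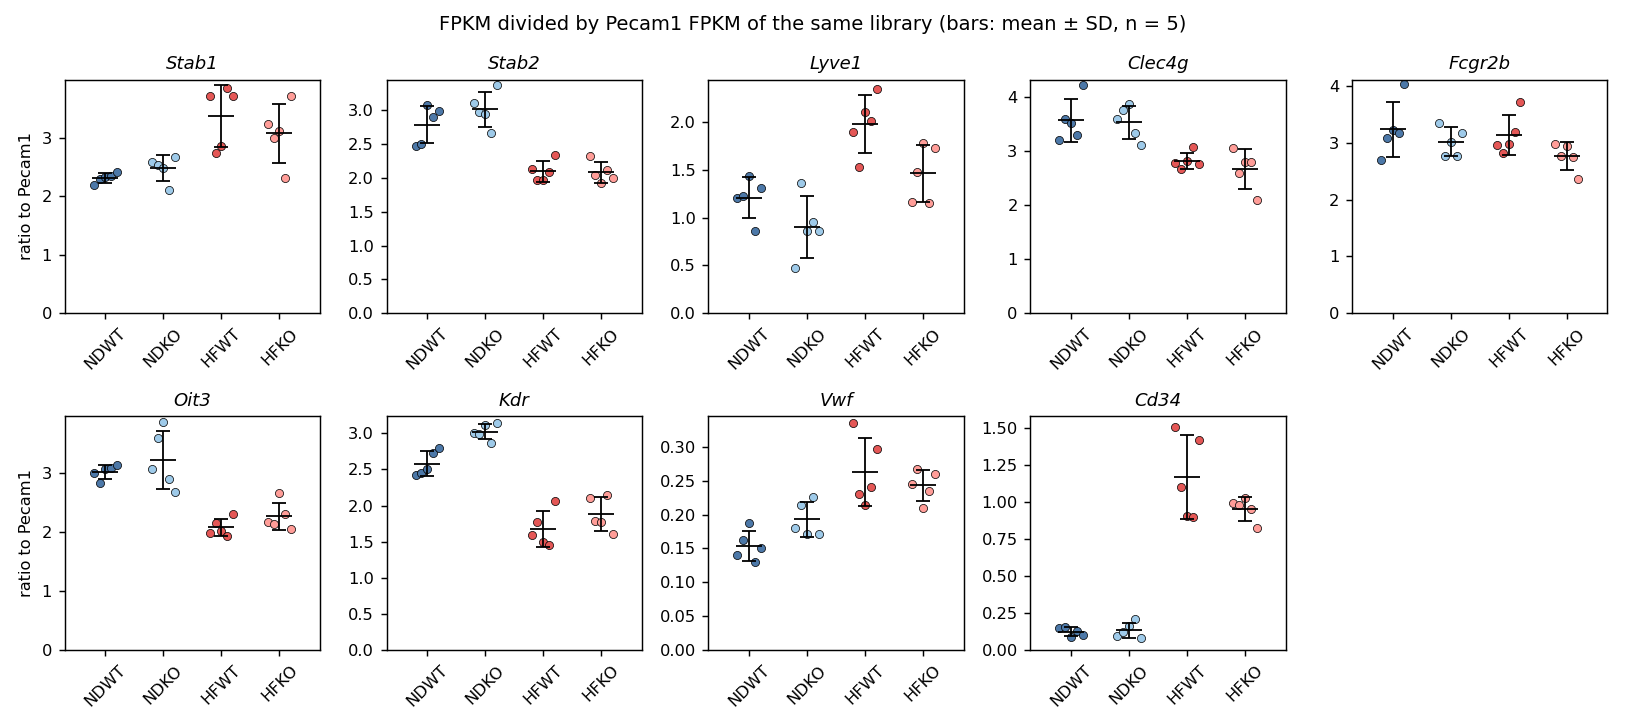
FPKM of each member divided by Pecam1 FPKM of the same library (y axis, from 0), with the 5 libraries of each group as points and the mean and SD as bars. The Stab2, Clec4g, Oit3 and Kdr points of the CDAHFD groups lie below those of the control groups of the same genotype, and the Cd34 points lie above.

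TSP-1 null was compared with WT on each diet to ask whether TSP-1 deficiency alters these genes. On the control diet 0 of 10 members were DEGs, against 4.77% of all genes, and on CDAHFD 0 of 10 against 0.496%, although at an unadjusted p below 0.05 there were 2 and 1. No member had groups without overlap, where 9.03% and 4.98% of all genes did. Lyve1 was nearest to a call on the control diet, with mean FPKM of 5.01 ± 0.91 in NDWT and 3.27 ± 1.05 in NDKO, a log2FC of -0.64 ± 0.21 and an FDR of 0.0532. It became a DEG without NDWT replicate 4 (-0.76, FDR 0.0299), without NDKO replicate 2 (-0.79, FDR 0.0188), without HFKO replicate 5 (FDR 0.0378) and with a stricter filter of FPKM above 1 (FDR 0.048). On CDAHFD its log2FC was -0.29 (95% interval -0.74 to 0.16).

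Fcgr2b was the other member below 0.05 before adjustment on the control diet, at a log2FC of -0.27 ± 0.10 (FDR 0.0804). On CDAHFD that was Kdr, at 0.32 ± 0.12 (FDR 0.174). For Cd34 the genotype log2FC was -0.12 on the control diet (95% interval -0.57 to 0.32) and -0.11 (-0.55 to 0.34) for mice fed CDAHFD. Stab1 gave -0.09 (-0.40 to 0.23) and 0.02 (-0.30 to 0.33). The comparisons of genotype and of diet share their groups, so they are not independent of each other.

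The interaction, the diet effect in TSP-1 null less that in WT, was called for 0 of 10 members and for 0.647% of all genes, and no member had an unadjusted p below 0.05. Its value was above 0 for 9 members, from 0.01 ± 0.30 for Cd34 to 0.37 ± 0.19 for Oit3 (FDR 0.371), and -0.08 ± 0.22 for Vwf. Without HFWT replicate 5 Cd34 was at -0.02, Stab1 at 0.03, Clec4g at 0.14, Pecam1 at 0.22 and Oit3 at 0.30. The share of all genes above 0 was not computed, and their median was -0.03. Members are measured in the same livers, so these are not 9 separate observations. Medians of the other sinusoidal and pan-endothelial genes listed below were 0.30 and 0.22. Those of the continuous, venous, arterial or activated endothelial list and of the stellate and fibroblast list were -0.004 and -0.22. Pecam1 and Fcgr2b, called in TSP-1 null livers only, had interaction values of 0.33 (95% interval -0.03 to 0.68) and 0.24 (-0.05 to 0.54), so a difference between genotypes was not shown for them.

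Within groups most pairs of members were positively correlated. Over the 20 libraries, taken as deviations from the group means, 42 of 45 pairs of members had a positive Pearson r, with a median of 0.463. Stab2 with Pecam1 (0.817), Kdr (0.815) and Fcgr2b (0.804) were the highest. Stab2 with Cd34 was at 0.012 and Lyve1 with Kdr at -0.025. These are descriptions, and all points share library depth and composition. The share of positive pairs among all genes tested was not computed, so the count is no result about the members.

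The tested genes closest to each member by the same measure are named without reading function from them. Kdr was closest to Gpr116 (r 0.919), Ptprb (0.915), the VE-PTP phosphatase of endothelium, and the water channel Aqp1 (0.883). Pecam1 was closest to Stard8 (0.898), Tmem63a (0.89) and Pald1 (0.887), Stab2 to Stard8 (0.863), Epg5 (0.836) and Mon2 (0.829), and Fcgr2b to Dab2 (0.906), Cd55 (0.854) and Patz1 (0.842). Cd34 was closest to Efemp2 (0.838), Islr (0.829) and Dennd2a (0.827), and Vwf to Frmd4a (0.858), Col6a3 (0.841), a collagen VI chain, and Myo10 (0.841). Stab1 was closest to Zbtb4 (0.897), Fnbp1 (0.896) and Tecpr1 (0.887), Lyve1 to Med19 (0.834), Zfp410 (0.831) and Stxbp5 (0.82), Clec4g to Cstf1 (0.892), Acd (0.85) and Mesdc2 (0.85), and Oit3 to Arhgap23 (0.895), March2 (0.866) and Tcf7l1 (0.862).

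Some listed genes exceeded 0.5 FPKM in 5 libraries only with the help of CDAHFD livers, so the filter favoured a higher value on CDAHFD. These, named for that reason, were Wnt9b, Selp, Pdpn, Ccl21a, Itgam, Ms4a1, Blk and Fbln2, and Timd4 and Cd163 passed only with the help of control livers. The counts of the lists below include them, are descriptions, and are followed by the counts without them. Of all genes 44.1% were higher in WT and 41.9% in TSP-1 null with FPKM as deposited. With median of ratios scaling 22.7% and 22.2% were higher, and with quantile normalization 18.9% and 18.5%. The shares lower were 4.62% and 4.00%, 15.4% and 13.6%, and 16.2% and 13.7%, in the same order. A list count near these shares is no result about that list.

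Other sinusoidal endothelial genes had a median below that of all genes in WT (0.29 against 0.53) but not in TSP-1 null (0.53 against 0.50). Of 18 listed and 17 tested, 5 were higher and 0 lower in WT on CDAHFD, with a median log2FC of 0.29, and with median of ratios scaling 0 were higher and 5 lower. In TSP-1 null 6 were higher and 0 lower (median 0.53), and 1 and 1 after that scaling. Without Wnt9b 4 were higher in WT and 5 in TSP-1 null. Maf, a transcription factor of sinusoidal identity, had a mean FPKM of 8.94 in NDWT and 16.5 in HFWT (log2FC 0.88 ± 0.10). Tfpi, the tissue factor pathway inhibitor, was at 0.89 ± 0.12, the Wnt amplifier Rspo3 at 0.99 ± 0.15 and the lectin Clec1b at 0.59 ± 0.16, but these 4 were not called in WT after either rescaling, and Tfpi and Clec1b changed sign with quantile normalization.

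Of 25 pan-endothelial genes, 6 were higher and 0 lower in WT (median 0.25), and 10 were higher and 0 lower in TSP-1 null (median 0.49). With median of ratios scaling the WT counts became 2 higher and 4 lower, and the TSP-1 null counts 3 and 0. With quantile normalization 2 were higher and 11 lower in WT, and 2 were higher and 1 lower in TSP-1 null. Fli1, an ETS factor that blood cells also express, and Ecscr, an endothelial surface protein, rose under each scaling, with log2FC in WT of 1.53 ± 0.12 and 1.77 ± 0.17. Egfl7 (0.70 ± 0.14) and Ramp2, a subunit of the adrenomedullin receptor (0.96 ± 0.23), were called in WT with FPKM as deposited only. These genes were named as DEGs in WT with FPKM as deposited, where 0 were lower, so only higher genes could be named. Cdh5, Tek, Flt1 and Ptprb, named after their values were seen, had lower means in HFWT than in NDWT. Mean FPKM was 11.1 in NDWT and 9.69 in HFWT for Cdh5, and 4.07 and 3.74 for Tek. The other genes of the list had higher means in HFWT, and all had higher means in HFKO than in NDKO. Icam2 was the 1 pan-endothelial gene called between genotypes on the control diet, at -0.63 ± 0.18 (FDR 0.0285), was not called after either rescaling, and was named after its value was seen.

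Of 16 genes of continuous, venous, arterial or activated endothelium 9 were tested, and 8 were higher in WT (median log2FC 0.98) and 8 in TSP-1 null (median 1.08), with 0 lower, and 3 and 5 were higher with median of ratios scaling. Without Selp 7 were higher in each genotype, and 3 and 4 with that scaling. Icam1 and Vcam1, adhesion molecules for leukocytes that other liver cells also make, had mean FPKM of 3.81 and 4.55 in NDWT and 22.5 and 17.5 in HFWT. Their log2FC in WT was 2.55 ± 0.15 and 1.92 ± 0.16. Thbd, thrombomodulin, was at 1.64 ± 0.18, and the arterial ligand Efnb2 at 0.71 ± 0.14, called with FPKM as deposited only.

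Several members are also made by other cell types whose markers moved with the diet, and their part in the member changes was not tested. Of 13 hepatic stellate cell and fibroblast genes 12 could be tested, and all 12 were higher in WT (median log2FC 1.94) and 11 in TSP-1 null (1.59), or 10 and 9 with median of ratios scaling, with summed FPKM of 37.1 to 52.0 in NDWT and 92.5 to 199 in HFWT. Without Fbln2 11 and 10 were higher, or 9 and 8 with that scaling. Pdgfra, the PDGF receptor of mesenchymal cells, was at 3.00 ± 0.15, Dpt at 4.02 ± 0.24, Pdgfrb at 2.69 ± 0.18 and the intermediate filament Des at 1.86 ± 0.14. Some fibroblasts carry Cd34.

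Of 14 Kupffer cell and macrophage genes, 8 were higher and 3 lower in WT, 9 were higher and 3 lower in TSP-1 null (8 and 4, and 8 and 3, with median of ratios scaling), and their sum was 348 to 454 FPKM in NDWT and 1338 to 1881 in HFWT. Without Itgam, Timd4 and Cd163 7 were higher and 1 lower in WT, and 8 were higher and 1 lower in TSP-1 null. Lyz2 (4.28 ± 0.18), Itgam (4.49 ± 0.19) and Cd68 (2.98 ± 0.17), genes of myeloid cells, were higher. The haemoglobin scavenger receptor Cd163 fell by 4.79 ± 0.21 on the log2 scale. Lyz2 had a mean of 44.6 FPKM in NDWT and 870 in HFWT, a large part of the rise in the sum. Clec4f, Timd4, Vsig4 and Marco, named after their values were seen, had lower means in HFWT than in NDWT. Clec4f was at 67.5 FPKM in NDWT and 29.7 in HFWT, and Timd4 at 5.19 and 0.367. Apart from these and Cd163, the genes of the list had higher means in HFWT. Of 7 B cell genes 5 were tested and all 5 were higher in both genotypes, but 3 in WT and 0 in TSP-1 null after median of ratios scaling, and 1 and 0 after quantile normalization, with a sum of 1.16 to 3.66 FPKM in NDWT and 6.41 to 9.59 in HFWT. Without Ms4a1 and Blk 3 of 3 were higher in each genotype. In WT the log2FC was 2.36 ± 0.37 for Cd79b and 1.45 ± 0.25 for Cd79a, both parts of the B cell receptor complex, and 1.09 ± 0.30 for the kinase Blk.

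Of 5 platelet genes 3 were tested, and 2 were higher in WT and 1 in TSP-1 null. After either rescaling 1 was higher and 0 lower in WT, and 1 higher and 1 lower in TSP-1 null, where Pf4 was the higher gene in both. Pf4 was at 3.33 ± 0.29 and Itga2b at 0.80 ± 0.18 in WT. Of 4 lymphatic endothelial genes 3 were tested and 2 were higher in both genotypes with FPKM as deposited, Pdpn (2.61 ± 0.26), which fibroblasts also carry, and the chemokine Ccl21a (1.74 ± 0.49). Both passed the filter only with the help of CDAHFD livers, and 0 are higher without them. With median of ratios scaling 2 were higher in WT, and 1 was higher and 1 lower in TSP-1 null. With quantile normalization 1 was higher in WT and 0 in TSP-1 null. The lower gene was Prox1 (log2FC -0.71), named after its value was seen. Its mean FPKM was 19.3 in NDKO and 17.0 in HFKO, far above the other lymphatic genes listed, and its cell source was not tested. Of 8 hepatocyte genes 0 were higher and 2 lower in WT and 5 lower in TSP-1 null (7 and 6 lower with median of ratios scaling, 0 and 1 with quantile normalization), with Pck1 at -0.85 ± 0.19 and Tat at -0.73 ± 0.27 in WT. Among all lists only Aplnr, and only in NDKO, was at 0 in each library of a group.

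**Figure D5:**
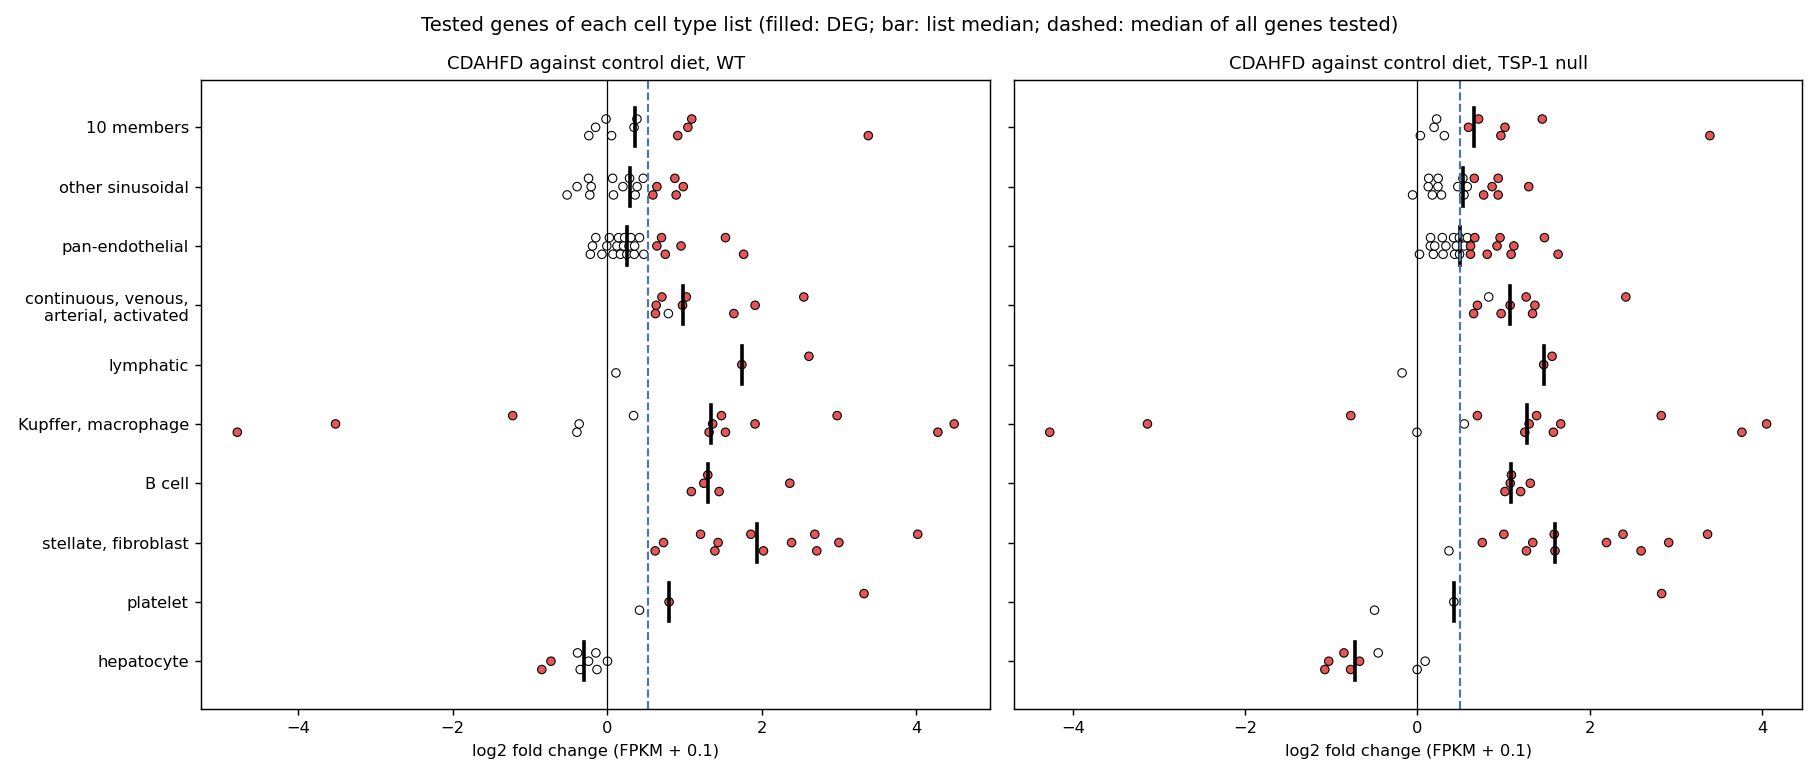
Diet log2 fold change (x axis) of each tested gene (points, filled where a DEG) in the 10 members and in the lists of other cell types, with the list median as a bar and the median of all genes tested as a dashed line. The other sinusoidal and pan-endothelial medians of 0.29 and 0.25 in WT lie left of the dashed line at 0.53. The stellate and fibroblast median of 1.94 lies right of it. In TSP-1 null the other sinusoidal and pan-endothelial medians of 0.53 and 0.49 lie close to the dashed line at 0.50.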

How the data were processed

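Poly(A)+ RNA of 20 mouse livers (4 groups of 5) was sequenced by the authors as directional, paired 150 base reads. The deposited values are FPKM per gene, made by the authors with QuickRNASeq, and the column of gene length in bases that belongs to them. The submitters' processing notes name STAR 2.5.2, featureCounts and Subread 1.5.1 and the build GRCh38, a human build, while gene IDs and coordinates in the table are those of mouse GRCm38. The strand setting of counting is not given in the sources used here, so reads of Stab1 and Cd34 cannot be separated from opposite-strand genes (Nt5dc2, Gm16897) over 112 and 148 shared exon bases. Stab2, Clec4g and Fcgr2b shared 141, 146 and 155 bases with predicted genes.

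FPKM times length gave whole fragments for 100% of the values that could be checked (at least 93.3% of values above 0 in each library). A count of 3 fragments on a 1 kb gene corresponds to 0.129 to 0.192 FPKM, which covers counting error only. No 2 libraries of a group were copies (40 pairs, chi-square per degree of freedom at least 12.1). Mice are separate animals.

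Testing used limma 3.58.1 in R 4.3.3 on log2(FPKM + 0.1) for genes that exceeded 0.5 FPKM in 5 or more libraries. The 20 libraries entered a single fit, a mean for each group, with an intensity trend, with two-sided tests and Benjamini-Hochberg FDR over 14524 genes (FDR under 0.05, absolute log2FC above 0.58). The fit was tested on simulated data with 200 changed genes and no shift of all genes, which does not bear on the choice of scaling. Alternatives were the pseudocount (0.01 and 1), the filter, scaling by median of ratios and by quantiles, the fold change limit, the limma options, the groups fitted, a replicate block and leaving out each library. Named genes are all members, Thbs1, at most 4 genes per cell type list (the DEGs with the lowest FDR in CDAHFD against control diet in WT) and the 3 genes closest to each member. Further list genes are named outside this rule, some after their values were seen. A gene that this rule names is not reported here. Promoters (6 of 10 members matched) are from RefSeq, build GRCm38.p6, and exons from GENCODE M21. The members and lists were chosen with earlier results of these data known.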

Additional observations from a re-analysis of the deposited data

Results flagged for a closer look

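In 40 groups of 5 libraries (10 members in 4 groups), 2 had a single library far from the rest by Dixon's test, and chance gives about 5% of groups. Fcgr2b in HFKO replicate 2 was at 13.7 FPKM, below the next library at 17.0. Vwf in HFKO replicate 5 was at 1.97 FPKM, above the next library at 1.46. The interaction test called 0 of 10 members.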

How the results depend on the processing

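The count of members higher on CDAHFD fell from 4 to 1 in WT under both median of ratios scaling and quantile normalization, and from 6 to 2 and 3 in TSP-1 null. The count lower in WT went from 0 to 2 under both scalings. Over all genes the share higher fell from 44.1% to 22.7% and 18.9% in WT. In TSP-1 null it fell from 41.9% to 22.2% and 18.5%. The share lower in WT went from 4.62% to 15.4% and 16.2%. Against these shares the counts are no result about the members as a group. Both scalings remove the upward shift of the median gene on CDAHFD, by 0.54 and 0.60 log2 units in WT and by 0.51 and 0.56 in TSP-1 null. In the control diet comparison of genotypes, 1 member (Lyve1) rather than 0 was lower with the filter at FPKM above 1, and 0 to 1 when single libraries were left out. With single libraries left out, 4 members were higher in WT and 5 to 6 in TSP-1 null.

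With a pseudocount of 1, Vwf lost its call in WT (log2FC 0.57) and TSP-1 null (0.54), and Fcgr2b in TSP-1 null (0.56), as a larger pseudocount shrinks fold changes. With no fold change limit Fcgr2b and Pecam1 in WT and Clec4g in TSP-1 null were also called. Of the members called with FPKM as deposited and a limit of 0.58, 0 changed sign under the alternatives run.

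The shared replicate numbers did not pair the libraries. Of 30 correlations between same-numbered libraries of different groups 0 exceeded 0.1 (range -0.133 to 0.081), and the own number was highest in 8. The fit with a replicate block kept 4 members higher in WT, 6 in TSP-1 null and 0 in the genotype comparisons and interaction, and changed no member's call.

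Cd34 on the control diet rests on few fragments (16 to 41 per library).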
